A study of Rattus norvegicus with 6 samples.

Results

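The genes described here belong to the families of enzymes that cut the extracellular matrix and lysosomal proteins, and of the proteins that hold those enzymes in check. They are 79 of the 10411 genes with a main probe set on the array, chosen by symbol. Among them are 14 matrix metalloproteases (Mmp), 14 Adam family members, 3 Adamts proteases and 15 cathepsins (Cts). The inhibitor families are 4 metalloprotease inhibitors (Timp1, Timp2, Timp3 and Reck) and 26 serpins other than Serpinh1 and Serping1. Plat, Plau and Plaur of the plasminogen system complete the list. Where several probe sets carry one symbol, the one with the greatest mean value stands for the gene. All 79 entered the tests, with no filter on low values.

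The samples were intact cerebral resistance arteries (middle and posterior cerebral and posterior cerebellar) of Dahl rats, a line known for hypertension on a salty diet. In the high salt group (3 arrays) rats had chow with 8% NaCl from 7 weeks of age, for 11 weeks by one label and 12 weeks by another. In the low salt group (3 arrays) rats had chow with 0.4% NaCl from 7 weeks of age for 12 weeks. Each array held RNA pooled from 3 rats, or 9 rats per diet, and arteries had been either snap frozen or kept in RNAlater, with no label that says which. All rats were on low salt chow before the study, and the study tested all genes as well as hypotheses on disease that it had set in advance. Values are the deposited log2 values, and differences are high salt minus low salt with the moderated standard error (SE) of limma. The value of one probe set cannot be ranked against that of another, since probes differ in how well they bind.

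Extracellular proteolysis runs in cascades. Metalloproteases are made as inactive precursors, some of which are activated at the cell surface by the membrane-bound Mmp14 together with Timp2, and plasmin, made from plasminogen by Plat and Plau, cuts matrix and activates further enzymes. Cathepsins work mainly in lysosomes at acid pH, and several can be secreted, among them cathepsin K, a strong collagenase and elastase. Timp proteins, Reck and many serpins inhibit these enzymes, and in the artery wall the balance is known to shape remodelling in hypertension.

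The arrays carried artery transcripts. The mean of 8 smooth muscle markers (all of those listed, Acta2 and Myh11 among them) was 11.48, 11.38 and 11.31 on the high salt arrays, against 12.00, 11.12 and 12.02 on the low salt arrays, where the median of an array was 7.96 to 8.17. All 8 differences were below 0, with a median of -0.15, while 60.0% of all genes were above 0. The diets overlapped for each of the 8. Markers of other cell types varied between arrays as well. The mean of 10 astrocyte markers (of 10 listed) was 10.73, 10.37 and 10.43 on the high salt arrays, against 9.42, 10.70 and 8.70 on the low salt arrays, and that of 12 macrophage and microglia markers (of 14 listed) was 9.26, 9.62 and 9.50, against 8.96, 9.04 and 9.37. The 9 fibroblast and meninges markers (of 9 listed) averaged 11.93, 12.41 and 12.27 on the high salt arrays, against 11.65, 12.29 and 11.86 on the low salt arrays. The mean of the red blood cell markers Hbb and Alas2 (2 of 5 listed) was 12.54, 12.04 and 12.86 on the high salt arrays, against 11.18, 11.79 and 11.67 on the low salt arrays. That mean and Hbb did not overlap between diets, and Alas2 did. All high salt arrays lay above for 8.64% of all genes. Both Hbb and Alas2 were higher at an unadjusted p below 0.05 in limma, as were 5.72% of all genes. Neither passed after Benjamini-Hochberg adjustment (adjusted p 0.803 for each). The 7 neuron markers (of 8 listed) averaged 7.04 to 7.18 on the high salt arrays, against 7.06 to 7.32 on the low salt arrays. The values have no true zero, so none of these markers was at 0. Low salt replicate 2 was thus like the high salt arrays in its astrocyte markers, and low salt replicates 1 and 3 were not. In pooled tissue, fewer cells of a type and less RNA per cell cannot be told apart.

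No member passed the threshold. By limma with Benjamini-Hochberg adjustment over 15866 probe sets, 0 of the 79 members had an adjusted p below 0.05, beside 0.0% of all genes, and the lowest adjusted p of a member was 0.803. At an unadjusted p below 0.05 stood 6 members on the higher side, Mmp14, Mmp23, Ctsd, Ctsf, Ctsh and Ctsk. That is 7.59% of the members, where 5.72% of all genes met the same rule, and on the lower side stood 0 members against 0.711% of all genes. All 3 high salt arrays lay above all 3 low salt arrays for 9 members, or 11.4% (8.64% of all genes), and below them for 4, or 5.06% (3.32% of all genes). For the family as a whole these shares are near those of the array. With one array left out, the count of 6 became 12 (low salt 2 omitted), 3 (low salt 1 omitted), 2 (high salt 3 omitted) or 1 (high salt 2 omitted).

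Over the 79 members, 40 differences were above 0 and 39 below, with a median of 0.0033, while the median of all genes was 0.067 and 60.0% of them were above 0. Scaling moves these values. With each array centred on its median, the median of all genes was -0.064 and 28 members were above 0. Under quantile normalization it was -0.019 and 35 members were above 0. The difference also went with brightness, as the plot of difference against mean value shows. Genes were cut into 5 bins of equal size by mean value. Among the 20 members in the brightest bin, 18 were above 0 (17 centred on medians, 16 quantile-normalized), with a median of 0.44, against 78.0% of the 2082 genes in that bin and a median of 0.26. Of these 20, 5 stood at an unadjusted p below 0.05 on the higher side (25.0%, against 6.96% of that bin), and 6 had no overlap, the high salt arrays being above (30.0%, against 10.6%). The split by brightness was chosen after the values were seen. Low salt replicate 1 was the lowest of the 6 arrays for 14 of the 20 members, or 70.0%, and for 62.9% of that bin. At the other end, 28 members had a mean below 6.65, the highest lower quartile of any array, where signal over background is small. In the dimmest bin 32.1% of the 2083 genes were above 0, with a median of -0.043. Of its 30 members 9 were above 0 (30.0%), with a median of -0.042.

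**Figure D1:**
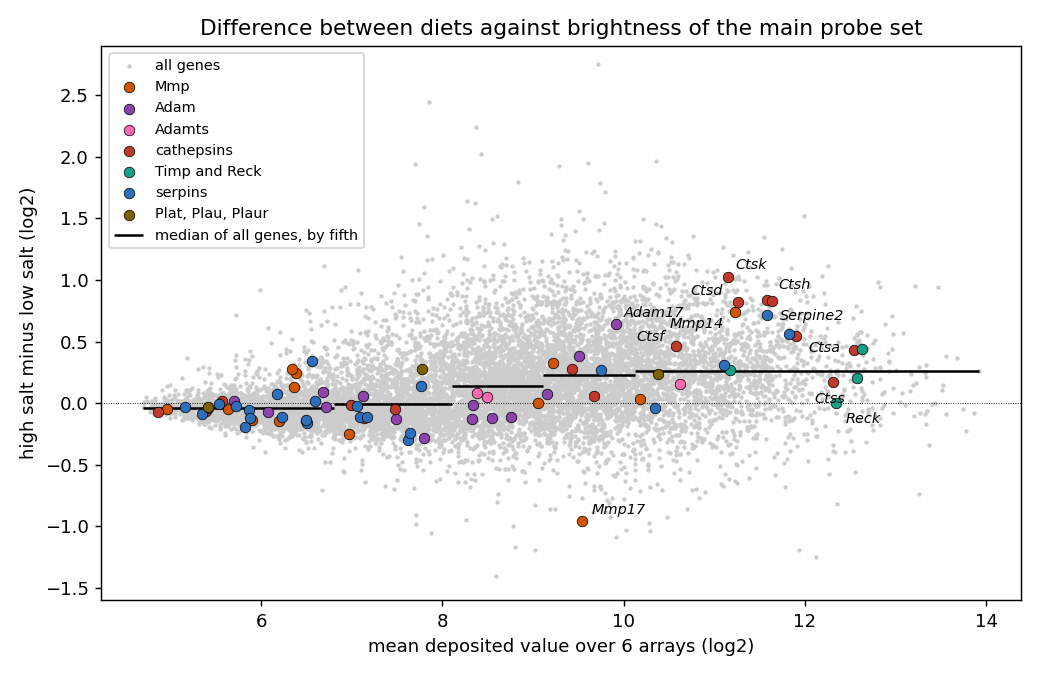
Difference between diets (high salt minus low salt, log2) against the mean deposited value over the 6 arrays (log2) for the 79 members, coloured by subfamily, over all 10411 genes in grey, with black bars at the median difference of all genes in each of 5 brightness bins. Mmp14 and the bright cathepsins other than Ctss lie above the bar of the brightest bin (0.26), Ctss and Reck lie below it, and Mmp17 lies at -0.96.

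The 4 largest differences above 0 among the members were those of cathepsin genes (Ctsk, Ctsh, Ctsl and Ctsd). Of 15 measured, 11 were above 0 (9 centred on medians, 10 quantile-normalized), and the median was 0.28. Over all genes 60.0% were above 0, with a median of 0.067. At an unadjusted p below 0.05 in limma stood 4 of the 15, all higher (26.7%, against 5.72% of all genes). In 6 of 15 (against 8.64% of all genes), Ctsa, Ctsd, Ctsf, Ctsh, Ctsk and Ctsz, every high salt array lay above every low salt array. The brightest bin held 8 of the 15, and 78.0% of all its genes were above 0, with a median of 0.26. In that bin 6.96% of genes were higher at an unadjusted p below 0.05 (limma), and 10.6% had no overlap with high salt above. These 8 cathepsins were all above 0, with a median of 0.68, by a split chosen after the values were seen. Adjusted over all probe sets 0 of the 15 cathepsins passed (limma, Benjamini-Hochberg).

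Ctsk encodes cathepsin K, the collagen- and elastin-cutting enzyme known best from osteoclasts. It was at 11.52, 11.57 and 11.90 on the high salt arrays, against 9.88, 11.45 and 10.57 on the low salt arrays. The high salt arrays were close together and all above the low salt arrays, with low salt replicate 2 just below them and replicates 1 and 3 lower. The difference was 1.03 ± 0.40 (SE), or 2.04-fold, with an adjusted p of 0.803 (limma, Benjamini-Hochberg). With low salt replicate 1 omitted it was 0.65, and under quantile normalization 0.81.

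Cathepsin D is the main aspartic protease of the lysosome. Its gene Ctsd was at 11.72, 11.76 and 11.52 on the high salt arrays, against 10.16, 11.19 and 11.19 on the low salt arrays. The groups did not overlap, and low salt replicate 1 lay about 1 log2 unit under the other 2 low salt arrays. The difference was 0.82 ± 0.30, or 1.77-fold, and 0.48 without that array. Ctsh, an aminopeptidase of the lysosome that also trims precursor proteins, was at 11.95, 12.11 and 11.95 on the high salt arrays, against 10.53, 11.81 and 11.15 on the low salt arrays. Its difference was 0.84 ± 0.32, 0.52 without low salt replicate 1, and the high salt arrays were again tight and all higher.

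Ctsf, a cysteine cathepsin, also had all high salt arrays above the low salt arrays, at 10.78, 10.88 and 10.76 on the high salt arrays, against 10.32, 10.11 and 10.60 on the low salt arrays. Here low salt replicate 2, not 1, was the lowest array. The difference was 0.46 ± 0.15, and 0.23 under quantile normalization. Ctsa (cathepsin A, a serine carboxypeptidase that also protects other lysosomal enzymes) was at 12.03, 12.39 and 12.09 on the high salt arrays, against 11.13, 12.01 and 11.75 on the low salt arrays, a difference of 0.54 ± 0.25 with groups that did not overlap. With low salt replicate 1 omitted it was 0.29.

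Ctsb and Ctsl, the widespread cysteine cathepsins of most cells, overlapped between diets. Ctsb was at 12.76, 12.62 and 12.87 on the high salt arrays, against 11.96, 12.68 and 12.33 on the low salt arrays, with a difference of 0.43 ± 0.20, and 0.25 when low salt replicate 1 was omitted. Ctsl was at 11.87, 12.27 and 12.01 on the high salt arrays, against 10.30, 12.11 and 11.26 on the low salt arrays, with a difference of 0.83 ± 0.45 that was 0.37 with low salt replicate 1 omitted and 1.27 with replicate 2 omitted. Its second probe set gave 0.98 ± 0.59. For both genes low salt replicate 2 sat among the high salt arrays. Ctss, the cathepsin of antigen-presenting cells and microglia, was at 12.53, 12.36 and 12.29 on the high salt arrays, against 12.05, 12.30 and 12.31 on the low salt arrays, a difference of 0.17 ± 0.12 that was 0.0036 under quantile normalization and 0.089 with low salt replicate 1 omitted. Ctsc, which activates the granule proteases of leukocytes, differed by 0.060 ± 0.23 (second probe set 0.26 ± 0.29), and Ctsz, a carboxypeptidase, by 0.28 ± 0.14. Ctse, an aspartic protease of stomach and immune cells, differed by -0.047 ± 0.15.

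**Figure D2:**
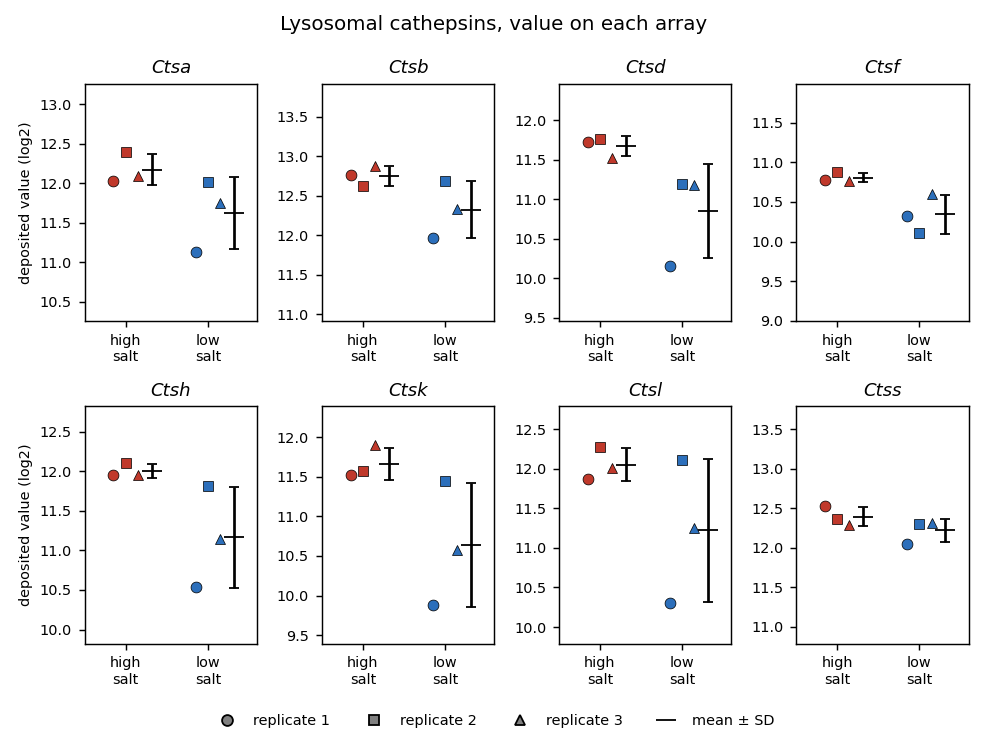
Deposited value (log2) of 8 cathepsin genes on each of the 3 high salt arrays (red) and 3 low salt arrays (blue), with the mean ± SD of each diet, each panel spanning 3 log2 units. The high salt arrays lie close together, low salt replicate 1 is the lowest array in 7 of the panels, and in the panels of Ctsb, Ctsl and Ctss low salt replicate 2 lies within the range of the high salt values.

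The cathepsins known from rodent placenta (Ctsj, Ctsq and Ctsr) and Ctsql2 gave flat values on all arrays. The mean was below 6.65 for 3 of the 4, and 6.99 for Ctsj. Ctsq was at 5.30, 5.40 and 5.40 on the high salt arrays, against 5.51, 5.39 and 5.38 on the low salt arrays, and Ctsr at 4.78, 4.86 and 4.82 on the high salt arrays, against 5.01, 4.86 and 4.81 on the low salt arrays. The 4 differences ran from -0.070 to 0.016. Of the other 11 cathepsins 10 were above 0, with a median of 0.46, and 0.28 under quantile normalization.

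Other lysosomal genes were read from a list that, like the members, was chosen with earlier results of these data known. Of 36 listed, 26 were measured, 25 were above 0 (22 centred on medians, 21 quantile-normalized) and the median was 0.47. Over all genes 60.0% were above 0, with a median of 0.067. The brightest bin held 17 of the 26, and 78.0% of its genes were above 0, with a median of 0.26. None of the 26 passed the adjusted threshold (limma, Benjamini-Hochberg). At an unadjusted p below 0.05 stood 7, all higher (26.9%, against 5.72% of all genes and 6.96% of that bin). No overlap, with high salt above, was seen for 10 (38.5%, against 8.64% and 10.6%). Hexa, which breaks down gangliosides, was at 11.66, 11.51 and 11.46 on the high salt arrays, against 10.78, 11.12 and 11.05 on the low salt arrays, a difference of 0.56 ± 0.13. Grn, the precursor of the granulins, was at 11.44, 11.43 and 11.47 on the high salt arrays, against 10.37, 10.85 and 11.03 on the low salt arrays, a difference of 0.70 ± 0.18. The lysosomal membrane protein Scarb2 differed by 0.98 ± 0.31, the sterol carrier Npc2 by 0.56 ± 0.20 and Lamp2 by 0.20 ± 0.20. Low salt replicate 1 was the lowest array for 17 of the 26 (65.4%), against 36.5% of all genes and 62.9% of the brightest bin. The lysosomal share is near that of the brightest bin, but only 17 of the 26 lie there. In the next lower bin the same array was lowest for 51.7% of genes. Among the 8 cathepsins of the brightest bin it was lowest for 7 (87.5%). Beside these values stand the macrophage markers, where C1qa differed by 1.19 ± 0.34, Aif1 by 1.10 ± 0.61, Csf1r by 0.19 ± 0.19 and the macrophage lysosomal protein Cd68 by -0.058 ± 0.31, with 9 of 12 above 0 and a median of 0.15. Under either scaling 6 of these 12 were above 0, and the quantile-normalized median was 0.0017. Of the 12, 1 (C1qa) stood at an unadjusted p below 0.05 in limma, on the higher side (against 5.72% of all genes). All high salt arrays were above for 2 (C1qa and Aif1), against 8.64% of all genes. Of the astrocyte markers 9 of 10 were above 0 (9 under either scaling, against 60.0% of all genes as deposited), with a median of 0.70. At an unadjusted p below 0.05 in limma stood 0, and 1 had all high salt arrays above (against 5.72% and 8.64% of all genes). The part of these and of the red blood cell markers in the cathepsin values was not tested.

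Some of these genes carry an E-box in the window from 250 bases before to 50 bases after the gene's start (RefSeq, GRCr8). The palindrome CACGTG, the core of the site bound by the lysosomal regulator Tfeb, was found in 2 of the 12 cathepsin windows available, those of Ctsd and Ctsf. Of the 57 member windows 4 held it (the others were Adam10 and Mmp12), and of all 33469 windows 6.42%. A match here is a description of letters, not a bound site. Both windows are printed to show where the palindrome, in capitals, lies. That of Ctsd is chr1:206968772-206969071 on the minus strand and holds it 2 times, and that of Ctsf is chr1:211581919-211582218 on the plus strand.
Ctsd: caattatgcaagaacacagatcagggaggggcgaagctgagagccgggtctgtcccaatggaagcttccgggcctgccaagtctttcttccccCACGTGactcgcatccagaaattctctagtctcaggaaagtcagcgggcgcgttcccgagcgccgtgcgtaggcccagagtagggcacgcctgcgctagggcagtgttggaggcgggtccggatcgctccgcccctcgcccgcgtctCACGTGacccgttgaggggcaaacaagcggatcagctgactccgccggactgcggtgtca
Ctsf: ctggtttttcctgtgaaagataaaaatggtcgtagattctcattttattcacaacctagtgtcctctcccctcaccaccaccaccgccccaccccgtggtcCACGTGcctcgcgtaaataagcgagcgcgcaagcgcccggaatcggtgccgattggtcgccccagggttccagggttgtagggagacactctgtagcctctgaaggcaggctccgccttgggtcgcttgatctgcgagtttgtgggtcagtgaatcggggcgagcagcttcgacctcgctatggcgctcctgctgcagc

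Among the metalloproteases, Mmp14 had the lowest unadjusted p. It encodes the membrane-bound collagenase that activates pro-Mmp2. Mmp14 was at 11.67, 11.67 and 11.45 on the high salt arrays, against 10.51, 11.24 and 10.82 on the low salt arrays. All high salt arrays were above all low salt arrays, and low salt replicate 2 was the highest of its group. The means were 11.60 ± 0.13 on high salt and 10.86 ± 0.37 on low salt (SD, n = 3 each), a difference of 0.74 ± 0.20 (SE) or 1.67-fold. The unadjusted p from limma was 0.0111 and the adjusted p 0.803 (Benjamini-Hochberg). With low salt replicate 1 omitted the difference was 0.57, with replicate 2 omitted 0.93, and under quantile normalization 0.52.

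Its partners in that reaction overlapped between diets. Mmp2, the gelatinase that cuts type IV collagen, was at 10.22, 10.05 and 10.33 on the high salt arrays, against 10.45, 9.42 and 10.64 on the low salt arrays. The low salt arrays lay on both sides of the high salt arrays, and the difference was 0.030 ± 0.33. Centred on medians it was -0.10, quantile-normalized -0.23, and a second, dimmer probe set gave -0.21 ± 0.11. Timp2, which bridges Mmp14 and pro-Mmp2 at the membrane and inhibits both, was at 12.74, 13.14 and 12.67 on the high salt arrays, against 12.15, 12.71 and 12.37 on the low salt arrays. The groups overlapped through low salt replicate 2, and the difference was 0.44 ± 0.20, while a dimmer second probe set gave -0.14 ± 0.22.

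Mmp23, a small membrane-anchored member, was at 9.40, 9.35 and 9.40 on the high salt arrays, against 8.92, 9.22 and 9.02 on the low salt arrays. The high salt arrays lay close together and above the low salt arrays. The difference was 0.33 ± 0.11, and 0.11 under quantile normalization. Mmp11 (stromelysin 3, known from stromal fibroblasts) had no overlap either, at 6.55, 6.53 and 6.45 on the high salt arrays, against 6.15, 6.22 and 6.43 on the low salt arrays, but all 6 values were below 6.65. Its difference was 0.24 ± 0.11.

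Mmp17, a membrane-type metalloprotease known from arterial smooth muscle, ran the other way and had the largest SE of the 79 members. It was at 9.69, 8.58 and 8.92 on the high salt arrays, against 11.22, 8.63 and 10.22 on the low salt arrays. Low salt replicates 1 and 3 were high, while low salt replicate 2 lay beside the lowest high salt array, so the groups overlapped. The difference was -0.96 ± 0.68. With low salt replicate 1 omitted it was -0.36, and with replicate 2 omitted -1.66. The smooth muscle marker mean given above was likewise high on low salt replicates 1 and 3 and low on replicate 2. The part of that marker difference in the Mmp17 values was not tested.

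Mmp16 and Mmp24, further membrane-type members, differed by 0.28 ± 0.31 and 0.0033 ± 0.18. The inducible secreted members had low values on all arrays. Mmp3 (stromelysin 1) was at 5.57, 5.57 and 5.70 on the high salt arrays, against 5.65, 5.62 and 5.72 on the low salt arrays, and Mmp13 (collagenase 3) at 4.94, 4.91 and 4.96 on the high salt arrays, against 4.94, 5.03 and 4.99 on the low salt arrays. Mmp9, the gelatinase of leukocytes, was at 6.35, 6.23 and 6.70 on the high salt arrays, against 6.34, 6.04 and 6.50 on the low salt arrays, a difference of 0.13 ± 0.18 with overlap. Mmp7, Mmp8, Mmp10 and Mmp12 differed by -0.25 to -0.12, and for Mmp8 (-0.14 ± 0.10) and Mmp10 (-0.14 ± 0.094) all high salt arrays lay below the low salt arrays. Both are among the 28 members with a mean below 6.65. Over the 14 Mmp genes 7 were above 0 and 7 below (5 and 9 under either scaling), with a median of -0.022, and 2 of 14 stood at an unadjusted p below 0.05 on the higher side (against 5.72% of all genes). A mean below 6.65 was seen for 7 of the 14, and in the dimmest bin 32.1% of all genes were above 0.

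Several secreted members hold the same motifs near their start. The letters TGANTCA, the site of AP-1 factors, read on both strands, were in 5 of the 9 Mmp windows available (Mmp3, Mmp7, Mmp10, Mmp12 and Mmp13), against 7.33% of all 33469 windows, and TATAAA, read on both strands, was in 6 of the 9 (Mmp8 besides these 5), against 14.2%. None of the 12 cathepsin windows held TGANTCA, and 1 held TATAAA (Ctss). The windows of Mmp3, chr8:12925031-12925330 on the plus strand, and Mmp13, chr8:12782579-12782878 on the plus strand (RefSeq, GRCr8), are printed beside those of the cathepsins to show the contrast, with both motifs in capitals. They do not overlap each other, and in both windows the AP-1 letters come first.
Mmp3: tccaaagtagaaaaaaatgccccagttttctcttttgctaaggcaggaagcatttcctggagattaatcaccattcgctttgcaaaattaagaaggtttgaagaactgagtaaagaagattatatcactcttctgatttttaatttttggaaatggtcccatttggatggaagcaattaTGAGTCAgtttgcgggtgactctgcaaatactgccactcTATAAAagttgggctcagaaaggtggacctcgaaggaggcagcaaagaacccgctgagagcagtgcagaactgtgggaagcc
Mmp13: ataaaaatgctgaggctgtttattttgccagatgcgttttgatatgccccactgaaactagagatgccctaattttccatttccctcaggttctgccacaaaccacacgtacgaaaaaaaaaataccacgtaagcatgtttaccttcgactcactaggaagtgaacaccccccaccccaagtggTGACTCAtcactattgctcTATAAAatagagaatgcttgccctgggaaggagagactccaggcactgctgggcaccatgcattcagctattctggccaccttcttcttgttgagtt

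The Adam and Adamts families include proteases that shed proteins from the cell surface or cut proteoglycans. Of 14 Adam genes 6 were above 0 (2 centred on medians, 5 quantile-normalized), with a median of -0.022, and 0 stood at an unadjusted p below 0.05 in limma (beside 5.72% of all genes on the higher side). Adam17, the sheddase that releases tumour necrosis factor, was at 9.89, 10.16 and 10.67 on the high salt arrays, against 8.78, 10.03 and 9.98 on the low salt arrays. Low salt replicate 1 alone was low, and the difference of 0.64 ± 0.40 was 0.24 without it. Adam10, the other general sheddase, was at 8.07, 7.94 and 8.96 on the high salt arrays, against 8.24, 8.47 and 8.31 on the low salt arrays, a difference of -0.017 ± 0.28, and a dim second probe set gave 0.073 ± 0.11. Adam15, found on endothelium and smooth muscle, was at 10.09, 9.67 and 9.32 on the high salt arrays, against 9.53, 9.04 and 9.38 on the low salt arrays, a difference of 0.38 ± 0.24 that was 0.13 under quantile normalization and 0.18 with high salt replicate 1 omitted. Adam1a was at 9.30, 9.16 and 9.10 on the high salt arrays, against 9.04, 9.21 and 9.09 on the low salt arrays, a difference of 0.077 ± 0.10 with overlap, which ran from 0.021 to 0.12 as each array was left out.

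Adam7, known from the epididymis, had all high salt arrays below the low salt arrays, at 7.53, 7.76 and 7.66 on the high salt arrays, against 8.12, 7.85 and 7.83 on the low salt arrays. The difference was -0.28 ± 0.12. The other testis- and epididymis-type members (Adam2, Adam3a, Adam18, Adam32) differed by -0.13 to 0.093. Adamts1, a versican- and aggrecan-cutting enzyme of the vessel wall, was at 10.72, 10.54 and 10.84 on the high salt arrays, against 10.61, 10.25 and 10.76 on the low salt arrays, a difference of 0.16 ± 0.17 that was -0.074 under quantile normalization and 0.012 with low salt replicate 2 omitted. Adamts7 was at 8.40, 8.76 and 8.38 on the high salt arrays, against 8.68, 8.41 and 8.31 on the low salt arrays, a difference of 0.047 ± 0.16. Adamts9 was at 8.36, 8.18 and 8.73 on the high salt arrays, against 7.73, 9.09 and 8.19 on the low salt arrays, a difference of 0.083 ± 0.36, and its low salt arrays lay on both sides of the high salt arrays. Of the 3 Adamts genes 3 were above 0 as deposited, 1 centred on medians and 0 quantile-normalized.

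The plasminogen activators overlapped between diets. Plat (tissue-type activator, released by endothelium) was at 10.35, 10.48 and 10.66 on the high salt arrays, against 9.72, 10.42 and 10.62 on the low salt arrays, a difference of 0.24 ± 0.25 that was -0.029 without low salt replicate 1. Plau (urokinase) was at 7.89, 7.32 and 8.53 on the high salt arrays, against 7.37, 7.77 and 7.76 on the low salt arrays, a difference of 0.28 ± 0.32, and a dim second probe set gave -0.021 ± 0.14. The urokinase receptor Plaur was dim on all arrays, at 5.36, 5.41 and 5.41 on the high salt arrays, against 5.63, 5.28 and 5.38 on the low salt arrays, with a difference of -0.034 ± 0.12 and 0.092 ± 0.094 at its second probe set.

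**Figure D3:**
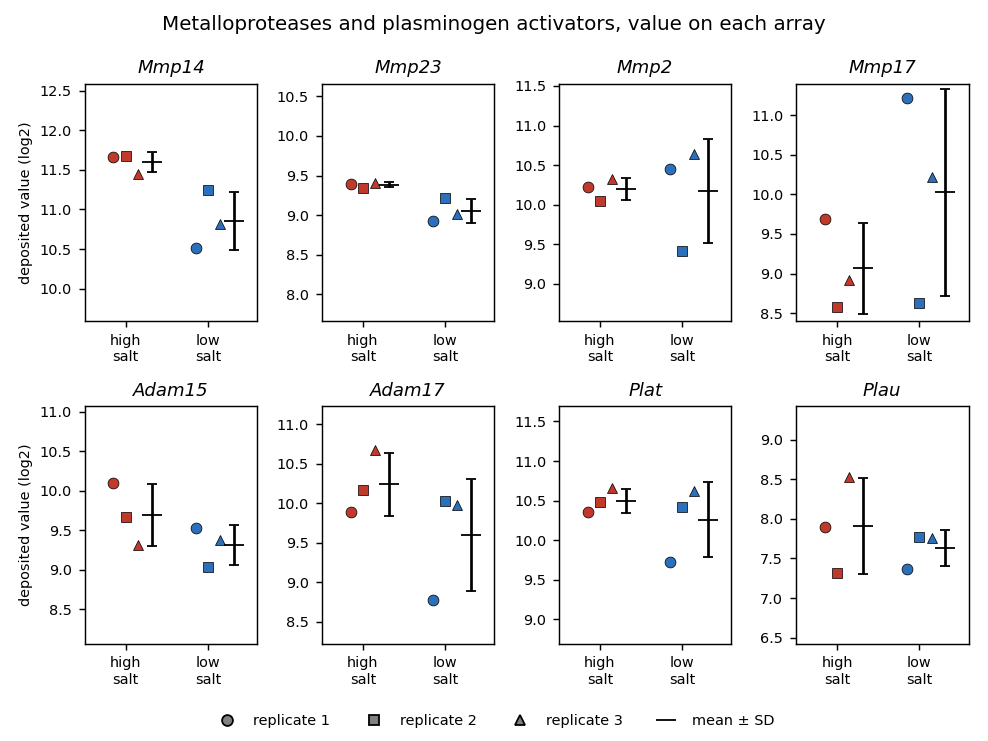
Deposited value (log2) of 8 protease genes on each of the 3 high salt arrays (red) and 3 low salt arrays (blue), with the mean ± SD of each diet, each panel spanning 3 log2 units. The diets do not overlap for Mmp14 and Mmp23 and overlap for the other 6, and Mmp17 spans 8.63 to 11.22 within the low salt arrays.

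The 4 inhibitors of metalloproteases were all in the brightest bin, with a median difference of 0.24, against 0.26 for all genes of that bin. Timp1, the inducible inhibitor, was at 11.27, 11.46 and 11.20 on the high salt arrays, against 11.51, 10.49 and 11.12 on the low salt arrays. Low salt replicate 1 was the highest of the 6 arrays and replicate 2 the lowest. The difference was 0.27 ± 0.27, and -0.0024 with low salt replicate 2 omitted. Timp3, which is held in the matrix and also inhibits Adam17, was at 12.59, 12.61 and 12.82 on the high salt arrays, against 12.16, 12.81 and 12.44 on the low salt arrays, a difference of 0.20 ± 0.19. With low salt replicate 1 omitted it was 0.050, and with replicate 2 omitted 0.37. Its 3 other probe sets gave 0.59 ± 0.41, 0.40 ± 0.31 and, for the dimmest, -0.15 ± 0.17. Reck, a membrane-anchored inhibitor of Mmp14, Mmp2 and Mmp9, was at 12.32, 12.25 and 12.45 on the high salt arrays, against 11.85, 12.74 and 12.45 on the low salt arrays. The low salt arrays lay on both sides of the high salt arrays and the difference was -0.0023 ± 0.24. Of these 4 inhibitors 0 stood at an unadjusted p below 0.05 (limma), beside 5.72% of all genes on the higher side and 0.711% on the lower. With 4 genes such a count says little.

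Serpins were mostly dim. Of 26, 15 had a mean below 6.65, among them 9 of the 11 of clade A, which are mainly plasma proteins made by liver. Over all 26, 8 were above 0 and 18 below (6 above centred on medians, 10 quantile-normalized), with a median of -0.038, and 0 stood at an unadjusted p below 0.05 in limma (beside 5.72% of all genes on the higher side and 0.711% on the lower). The share above 0 was 30.8%, near the 32.1% of all genes in the dimmest bin, whose median was -0.043. Serpine2 (protease nexin 1, an inhibitor of thrombin, urokinase and tissue-type activator made by vascular cells and astrocytes) was at 11.97, 12.03 and 11.82 on the high salt arrays, against 10.25, 11.95 and 11.46 on the low salt arrays. Low salt replicate 1 was far below the rest, replicate 2 was among the high salt arrays, and the difference of 0.72 ± 0.43 was 0.23 without replicate 1 and 1.08 without replicate 2. Serpinb6a, an intracellular inhibitor, was at 12.31, 11.84 and 12.17 on the high salt arrays, against 10.82, 11.99 and 11.82 on the low salt arrays, a difference of 0.56 ± 0.33 that was 0.20 with the same low array omitted.

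Serpinf1 (pigment epithelium-derived factor, an antiangiogenic serpin without inhibitor activity) was at 10.71, 11.58 and 11.51 on the high salt arrays, against 10.81, 10.73 and 11.34 on the low salt arrays, a difference of 0.31 ± 0.29 that ran from 0.15 to 0.58 as each array was left out. High salt replicate 1 and low salt replicates 1 and 2 were low, and the others high. Serpinb9, which inhibits granzyme B, was at 9.73, 10.63 and 10.64 on the high salt arrays, against 9.87, 10.72 and 10.52 on the low salt arrays, a difference of -0.039 ± 0.34, and its second probe set gave 0.084 ± 0.24. Serpinb1a, an inhibitor of neutrophil elastase, differed by 0.27 ± 0.27, and Serpini1 (neuroserpin) by 0.34 ± 0.21. Serpinb7 had no overlap, at 5.78, 5.62 and 5.76 on the high salt arrays, against 6.05, 5.86 and 5.84 on the low salt arrays, a dim probe set with a difference of -0.20 ± 0.11 that was -0.13 with low salt replicate 1 omitted.

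**Figure D4:**
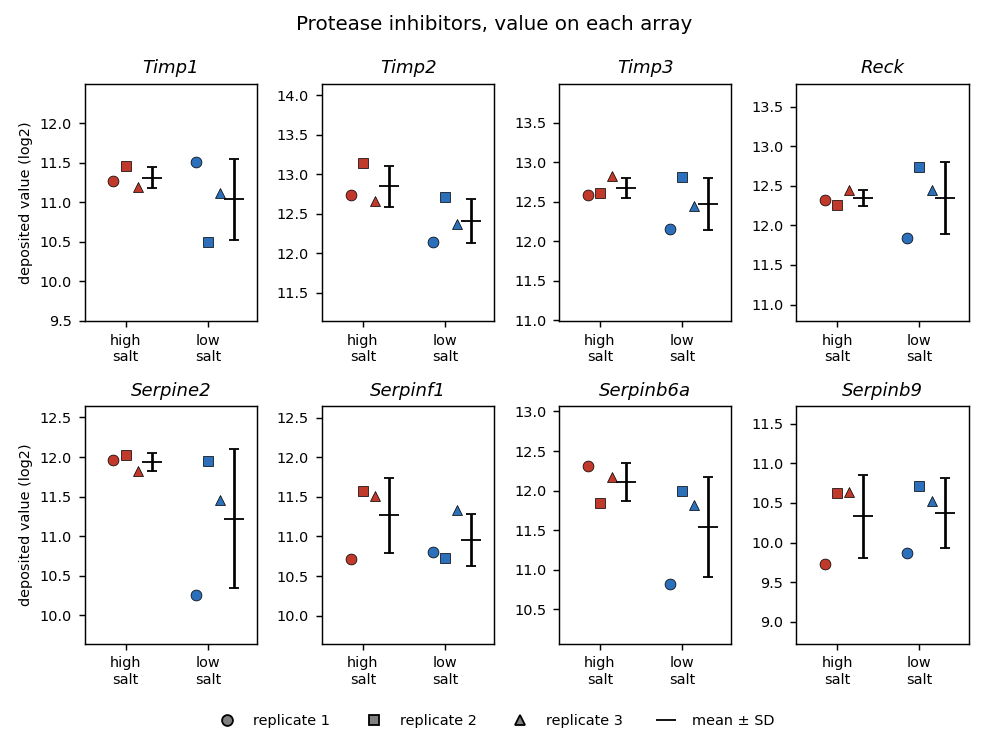
Deposited value (log2) of 8 inhibitor genes on each of the 3 high salt arrays (red) and 3 low salt arrays (blue), with the mean ± SD of each diet, each panel spanning 3 log2 units. The diets overlap in every panel shown, and low salt replicate 1 is the lowest array for Timp2, Timp3, Reck, Serpine2 and Serpinb6a.

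A list of protease partners, activators and other inhibitors was read in the same way. Of 36 listed, 33 were measured and 26 were above 0 (21 centred on medians, 22 quantile-normalized), with a median of 0.23. Over all genes 60.0% were above 0, with a median of 0.067. The brightest bin held 14 of the 33, and 78.0% of its genes were above 0, with a median of 0.26. None of the 33 passed the adjusted threshold. In limma 3 stood at an unadjusted p below 0.05, all higher (9.09%, against 5.72% of all genes). Lgmn (legumain, which processes cathepsins B, H and L to their mature forms) was at 11.94, 11.75 and 12.03 on the high salt arrays, against 10.73, 11.56 and 11.27 on the low salt arrays, a difference of 0.72 ± 0.23 with no overlap. A2m, a broad trap for proteases, was at 9.40, 9.22 and 9.35 on the high salt arrays, against 7.28, 8.18 and 8.65 on the low salt arrays, a difference of 1.29 ± 0.35 with no overlap. F2r, the thrombin receptor, was at 11.02, 10.37 and 10.85 on the high salt arrays, against 9.46, 9.87 and 10.13 on the low salt arrays, a difference of 0.92 ± 0.24 with no overlap. The adjusted p of each was 0.803 (limma, Benjamini-Hochberg).

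The main extracellular inhibitor of cysteine cathepsins, Cst3 (cystatin C), was at 12.62, 12.97 and 12.42 on the high salt arrays, against 12.08, 13.07 and 12.57 on the low salt arrays, a difference of 0.096 ± 0.28 with overlap. Cstb, the cytosolic inhibitor, differed by 0.55 ± 0.32. Bsg (basigin, an inducer of metalloproteases) differed by 0.55 ± 0.28, Anxa2 (a cell-surface receptor for plasminogen and Plat) by 0.69 ± 0.43, and Lrp1, which clears protease and inhibitor complexes, by 0.24 ± 0.25. Plg, plasminogen itself, had dim probes at 6.52, 6.90 and 6.47 on the high salt arrays, against 7.02, 6.60 and 6.75 on the low salt arrays.

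**Figure D5:**
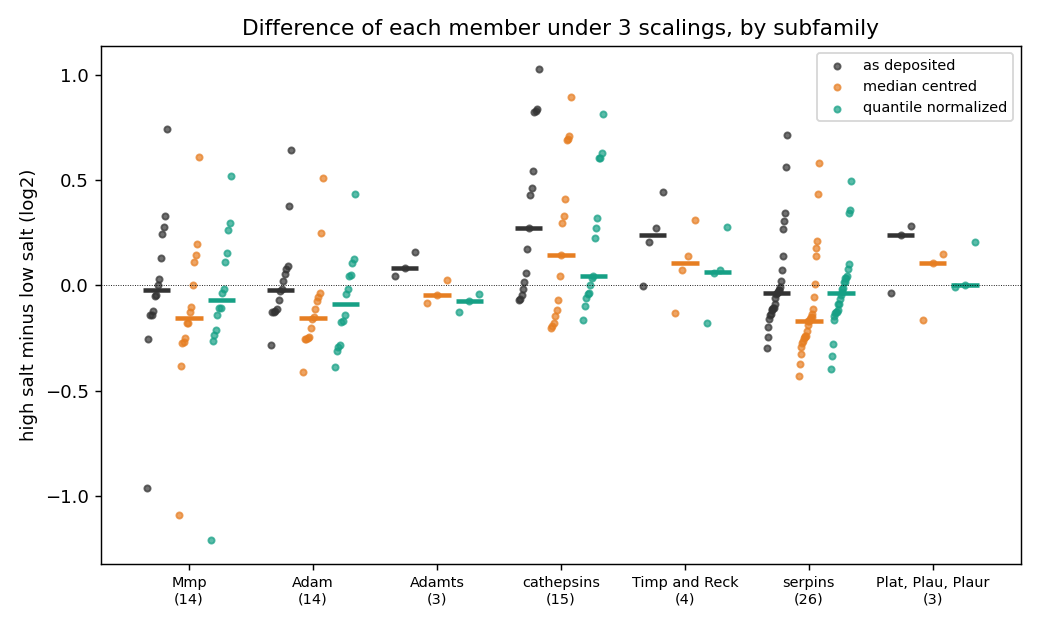
Difference between diets (high salt minus low salt, log2) of each of the 79 members by subfamily, with the number of genes in brackets, from the values as deposited, centred on array medians and quantile-normalized; bars are medians. The cathepsin median is 0.28, 0.14 and 0.044 under the 3 scalings, and the bars of the Mmp, Adam and serpin genes lie below 0 in all 3. The median of all genes, not drawn, is 0.067, -0.064 and -0.019, and that of the dimmest bin -0.043, -0.17 and -0.018. A mean below 6.65 is seen for 7 of 14 Mmp, 2 of 14 Adam and 15 of 26 serpin genes.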

How the data were processed

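Each pool's RNA went through 2 cycles of amplification and onto 1 Affymetrix rat array, per the labels' protocols. The deposited log2 values, 1 per probe set and array, come from RMA (robust multi-array averaging), per the submitters' processing notes (version not given in the sources used here). Base 2 was inferred from the range of the values. Of 15923 rows 57 control probe sets were left out. All 79 members were matched by Entrez identifier to RefSeq (GRCr8), which changed 0 symbols, and 17 had more than 1 probe set (20 others, 9 opposite in sign).

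Diets were compared with limma 3.58.1 in R 4.3.3 (lmFit and eBayes, no block), with Benjamini-Hochberg adjustment over all 15866 probe sets and a threshold of 0.05. Replicates are pools of separate rats, and 6 arrays limit the precision. Members and lists were chosen with earlier results of these data known. The text names in full, per subfamily, the 3 members of lowest p and the 3 brightest plus a fixed set, 33 in all, and others by value when a subfamily is described.
Alternatives were other scalings, a filter at the 40th percentile, trended and robust variances, array weights, a replicate block, averaging over a gene's probe sets and each array left out.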

Additional observations from a re-analysis of the deposited data

How the results depend on the processing

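Under all 13 alternatives 0 probe sets and 0 members passed the adjusted threshold, and the lowest adjusted p of a named member was 0.126 (Mmp14 without low salt replicate 2; limma, Benjamini-Hochberg). The count of members at an unadjusted p below 0.05 on the higher side ran from 1 to 12 with 1 array left out, and on the lower side from 0 to 3. The lower count was 2 centred on medians, 2 quantile-normalized and 1 with trended and robust variances. Deviations of same-numbered arrays correlated at 0.038, -0.27 and 0.044. The labels do not say that the replicate numbers mark a shared batch, and these values cannot settle it. With the replicate block the counts were 7 higher and 1 lower. The median over all members was -0.13 after median centring and 0.22 over the 40 members above the filter, which drops the dim ones, and -0.027 to 0.045 with 1 array left out. The medians after median centring were -0.15 for Mmp, -0.15 for Adam, -0.047 for Adamts, 0.14 for cathepsin and -0.17 for serpin genes, beside -0.064 for all genes. After quantile normalization they were -0.070 for Mmp, -0.090 for Adam, -0.074 for Adamts, 0.044 for cathepsin and 0.0022 for plasminogen activation genes, beside -0.019 for all genes. Above the filter they were 0.030 for Mmp, 0.50 for cathepsin and 0.20 for serpin genes, and with array weights, whose estimation stopped before convergence, -0.063 for Mmp and 0.015 for plasminogen activation genes. With 1 array left out the cathepsin median ran from 0.19 to 0.39 and the plasminogen activation median from -0.025 to 0.35. Of the 33 named members 21 kept their sign under every alternative and 12 did not. After median centring the sign turned for Adam1a (-0.054), Adamts7 (-0.084), Adamts9 (-0.047) and Mmp2 (-0.10), and after quantile normalization for Adam1a (-0.14), Adamts1 (-0.074), Adamts7 (-0.13), Adamts9 (-0.039) and Mmp2 (-0.23). It turned with array weights for Mmp2 (-0.18) and Plaur (0.00063), and when a gene's probe sets were averaged for Adam10 (0.028), Mmp2 (-0.091) and Plaur (0.029). With 1 array left out the range crossed 0 for Adam10 (-0.34 to 0.18), Adamts7 (-0.075 to 0.15), Adamts9 (-0.22 to 0.46), Mmp2 (-0.35 to 0.27), Mmp9 (-0.0039 to 0.23), Plat (-0.029 to 0.42), Plau (-0.025 to 0.58), Plaur (-0.11 to 0.067), Reck (-0.25 to 0.20) and Timp1 (-0.0024 to 0.51). The causes were not tested. A probe set near the lower quartile of the arrays has little signal over background, which limits 28 of the 79 members.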
